A study of Mus musculus with 12 samples.

Results

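The serum amyloid A genes of the mouse were followed through the terminal ileum, the last stretch of the small intestine. The members were chosen by symbol, and all 4 of them, Saa1, Saa2, Saa3 and Saa4, were among the 23284 genes of the deposited count table. RNA sequencing gave 1 library per mouse for 12 mice in 4 groups of 3. The first group was labelled Rag1-/-, for loss of the recombinase that assembles antigen receptors, without which no mature T or B cells form. The second group was Tcra-/- mice, which lack the alpha chain of the T cell receptor and so form no alpha-beta T cells, and these mice shared a cage with age matched male wild type mice for 4 to 8 weeks. The third group was Tcra-/- mice housed separately, and the fourth was wild type C57BL/6 mice. Both deletions are present in every cell of the animal, so neither is confined to the intestine. All strains came from Taconic and all mice lived in a specific pathogen free facility. The ages are not given by the labels, the sex is given only for the co-housing, and the labels do not say whether the sequenced wild type mice were the cage partners. How many cages each group came from is not stated either, so the p-values below measure the spread between mice and not between cages. The design text names 2 comparisons, Rag1-/- against wild type and co-housed against separately housed Tcra-/- mice.

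Serum amyloid A proteins are small apolipoproteins that travel on high-density lipoprotein and rise in blood during an acute phase response, when interleukin 6, interleukin 1 and tumour necrosis factor act on the liver. In the mouse ileum the epithelium also makes them, and attachment of segmented filamentous bacteria to the epithelium is a known stimulus, relayed by interleukin 22 from innate lymphoid cells through STAT3. The secreted proteins bind retinol and promote interleukin 17 production by T cells. Saa1 and Saa2 encode the closely related acute phase forms, Saa3 encodes a form made largely outside the liver, for example by macrophages, adipocytes and epithelium, and Saa4 encodes a form that is made constitutively in liver.

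In the mm9 coordinates of the deposited table the 4 genes lay in a cluster of 42317 bases on chromosome 7. Saa3 (53967368 to 53971046), Saa4 (53983369 to 53987913) and Saa1 (53995869 to 53998350) were on the minus strand, and Saa2 (54007203 to 54009684) was on the plus strand, with 4 exons per gene. The gaps between neighbours were 12322 bases from Saa3 to Saa4, 7955 bases from Saa4 to Saa1 and 8852 bases from Saa1 to Saa2, and no other gene of the table shared exonic bases with a member. Saa1 and Saa2 thus stood head to head, with their start sites facing each other across the last gap.

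The promoter sequences are shown because Saa1, Saa2 and Saa3 all rose in co-housed over separately housed Tcra-/- mice, by different amounts. Each is the 250 bases upstream of the gene start in RefSeq (GRCm38.p6), 5′ to 3′ along the gene, and all 4 members were matched by symbol. Capitals mark matches to 3 motifs that were searched on both strands and were chosen after the sequences had been seen.
Saa1 (chr7:46742981-46743230, minus strand): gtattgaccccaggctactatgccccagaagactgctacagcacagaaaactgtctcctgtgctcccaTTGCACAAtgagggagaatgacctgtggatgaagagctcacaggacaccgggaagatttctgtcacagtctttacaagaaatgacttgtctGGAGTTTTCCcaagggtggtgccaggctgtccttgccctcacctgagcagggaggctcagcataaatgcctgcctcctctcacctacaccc
Saa2 (chr7:46751583-46751832, plus strand): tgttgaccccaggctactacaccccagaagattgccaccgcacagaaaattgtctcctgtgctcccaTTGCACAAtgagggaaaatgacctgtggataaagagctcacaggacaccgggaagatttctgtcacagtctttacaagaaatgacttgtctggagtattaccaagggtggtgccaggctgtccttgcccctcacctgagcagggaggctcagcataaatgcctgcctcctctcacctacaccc
Saa3 (chr7:46715677-46715926, minus strand): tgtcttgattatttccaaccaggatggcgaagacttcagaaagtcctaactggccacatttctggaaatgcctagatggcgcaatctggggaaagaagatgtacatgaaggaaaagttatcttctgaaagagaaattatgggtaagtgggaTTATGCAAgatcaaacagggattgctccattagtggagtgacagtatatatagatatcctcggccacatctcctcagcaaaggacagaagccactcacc
Saa4 (chr7:46732604-46732853, minus strand): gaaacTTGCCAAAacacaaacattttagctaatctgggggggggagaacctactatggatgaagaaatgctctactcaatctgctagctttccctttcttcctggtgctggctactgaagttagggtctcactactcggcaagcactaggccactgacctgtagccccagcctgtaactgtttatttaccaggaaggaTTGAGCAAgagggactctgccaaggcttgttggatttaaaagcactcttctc

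The Saa1 and Saa2 promoters were near copies, identical at 95.6% of 249 aligned bases, with 11 mismatches. By contrast, Saa1 and Saa3 promoters were identical at 75.1% of the 205 bases that could be aligned. All pairs other than Saa1 with Saa2 lay between 70.9% and 76.8%, the latter for Saa1 and Saa4 over only 95 aligned bases. The 75.1% therefore does not set Saa3 apart as nearer to Saa1. A match to TTGCNNAA, letters found in sites of the C/EBP factors that drive acute phase genes, was present in all 4 windows. It lay at positions -182 to -175 in Saa1 and -183 to -176 in Saa2, as TTGCACAA in both, counted from the gene start. Saa3 held TTATGCAA at -99 to -92, which matches on the opposite strand. Saa4 held TTGCCAAA at -245 to -238 and, matching on the opposite strand, TTGAGCAA at -52 to -45. A match to GGNNNTTTCC, letters of an NF-kappaB-like site, was present only in the Saa1 window, as GGAGTTTTCC at -91 to -82. The aligned Saa2 window read GGAGTATTAC, which differs from Saa1 by T6A and C9A, counted from 1 at the 5′ end of the site. The letters TTCNNNGAA, a STAT site, had no match in any of the 4 windows. No 2 matches overlapped. Of 32851 RefSeq promoter windows of the same length, 9.56% held TTGCNNAA, 4.63% held GGNNNTTTCC and 7.02% held TTCNNNGAA on either strand, so a match is a description of the letters and not of a bound site.

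The libraries held between 37061276 and 50581616 counted reads. Of the genes, 15866 passed the filter on low counts and were tested, all 4 members among them. Ileal identity was present throughout, with the bile acid transport genes Fabp6 and Slc10a2 and the other 8 enterocyte markers detected in every group. Rag1 itself, the gene named by the label, had 236 reads in the mice labelled Rag1-/- (69 to 92 per mouse) and 0 reads in the other 9 libraries, so reads of Rag1 do not check that label. Summed markers of B cells ran from 2.13 to 2.79 CPM in the mice labelled Rag1-/-, 106 to 155 in co-housed Tcra-/-, 46.7 to 83.7 in separately housed Tcra-/- and 149 to 183 in wild type mice. CPM is the read count of a gene scaled to the size of its library, with library sizes corrected by the trimmed mean of M-values (TMM).

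Saa1 was the main transcript of the family in every library. It reached 989, 1102 and 1021 CPM in the mice labelled Rag1-/- and 702, 524 and 1165 CPM in co-housed Tcra-/- mice. It stood at 4.34, 1.51 and 1.51 CPM in separately housed Tcra-/- mice and at 149, 142 and 261 CPM in wild type mice. The mice of both high groups overlapped each other and were all above wild type, and all separately housed Tcra-/- mice were below every other mouse. Ranked by reads among all genes, Saa1 held places 82 to 95 in the mice labelled Rag1-/-, 76 to 227 in co-housed Tcra-/-, 10857 to 12702 in separately housed Tcra-/- and 612 to 1348 in wild type mice. The means were 1037 ± 58.3 CPM in the mice labelled Rag1-/-, 797 ± 331 in co-housed Tcra-/-, 2.46 ± 1.64 in separately housed Tcra-/- and 184 ± 66.8 CPM in wild type mice (SD, n = 3 each). The whole tissue was sequenced, so fewer cells of a type and less RNA per cell cannot be told apart.

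For Saa1 the quasi-likelihood test of edgeR, with Benjamini-Hochberg adjustment over all tested genes and calls at an adjusted p under 0.01, gave a log2 fold change of 2.50 (SE 0.43, 5.64-fold, adjusted p = 0.00237) for the mice labelled Rag1-/- over wild type. Without WTB6x3159 or without WTB6x3160 that adjusted p became 0.0137 and 0.0135. Co-housed over separately housed Tcra-/- mice gave 8.34 (SE 0.58, 323-fold, adjusted p = 4.76e-06), a rise that ranked 5 by size among the 15866 genes. Separately housed Tcra-/- over wild type mice gave -6.22 (SE 0.54, 74.5-fold lower, adjusted p = 7.85e-05), which ranked 5 among the falls. Saa1 also rose in co-housed Tcra-/- over wild type mice, by 2.12 (SE 0.42, 4.33-fold, adjusted p = 0.00589). That last call ended when any of 7 libraries was left out, with adjusted p of 0.0116 without RAG1x3163, 0.0113 without RAG1x3164, 0.0111 without RAG1x3168, 0.0133 without TCRaCox3155, 0.0148 without TCRaCox3157, 0.0289 without WTB6x3159 and 0.0287 without WTB6x3160. It also ended in a fit to the 6 libraries compared, with an adjusted p of 0.0224. Library names are those of the labels: RAG1x stands for the label Rag1-/-, TCRaCox for Tcra-/- mice that were co-housed, TCRaSepx for those that were not, and WTB6x for wild type.

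**Figure D1:**
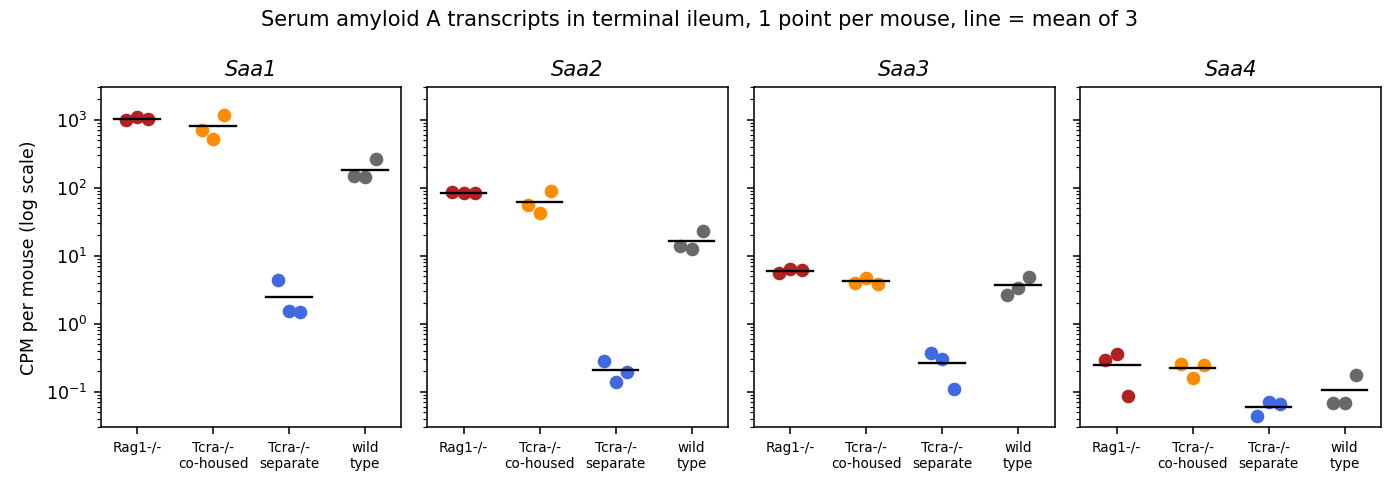
CPM per mouse on a log scale for Saa1, Saa2, Saa3 and Saa4, with groups in the order Rag1-/-, co-housed Tcra-/-, separately housed Tcra-/- and wild type; each point is 1 mouse and each line the mean of 3. Saa1 and Saa2 span from 1165 to 1.51 CPM and from 89.1 to 0.140 CPM in the same order of groups, Saa3 keeps the low separately housed group but brings wild type close to the high groups, and Saa4 reaches at most 0.355 CPM.

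Saa2, the near copy of Saa1, gave the same order of groups at a far lower level. It had 85.1, 84.8 and 82.6 CPM in the mice labelled Rag1-/-, 56.5, 42.1 and 89.1 CPM in co-housed Tcra-/- mice, 0.285, 0.140 and 0.197 CPM in separately housed Tcra-/- mice and 13.7, 12.6 and 23.0 CPM in wild type mice. The separately housed group rested on 13, 6 and 9 reads. The mice labelled Rag1-/- lay close together, all within the wider range of the co-housed mice, and no mouse of either group overlapped with wild type. The log2 fold change of Saa2 was 2.36 (SE 0.30, adjusted p = 0.000283) for the mice labelled Rag1-/- over wild type. It was 8.21 (SE 0.49, 296-fold, adjusted p = 8.19e-07) for co-housed over separately housed Tcra-/- mice, ranked 6 by size next to Saa1. Separately housed Tcra-/- over wild type mice gave -6.28 (SE 0.50, 77.8-fold lower, adjusted p = 2.98e-05), and co-housed over wild type mice gave 1.93 (SE 0.30, adjusted p = 0.00112). No Saa2 call ended when a single library was left out, but the call for co-housed over wild type mice ended in a fit to the 6 libraries compared (adjusted p = 0.0205).

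Saa1 and Saa2 kept nearly the same proportion while their sum moved with the groups. The Saa2 share of the reads of both genes was 7.92%, 7.15% and 7.49% in the mice labelled Rag1-/-, 7.45%, 7.44% and 7.10% in co-housed Tcra-/- mice and 8.43%, 8.14% and 8.11% in wild type mice. In separately housed Tcra-/- mice the share was 6.16% (95% exact Clopper-Pearson interval 3.32 to 10.3), 8.45% (3.16 to 17.5) and 11.5% (5.41 to 20.8), and each of these intervals held the shares of all 9 mice of the other groups. The wild type shares were above all 6 shares of both high groups, a gap that was not tested. These intervals cover counting error only, since reads were not tagged by molecule.

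The reads of such near copies can be assigned to either gene. The transcripts of Saa1 and Saa2 were identical at 94.4% of 606 aligned bases, against 81.7% of 486 for Saa1 and Saa3. Of the windows of 36 bases in the Saa1 transcript, 21.3% occurred unchanged in Saa2 and 4.01% in Saa3. For windows of 75 bases, 4.67% of Saa1 occurred in Saa2 and 0 in Saa3, and for windows of 100 bases none was shared. No source used here gives the read length or says how reads with several matches were treated, so the split between Saa1 and Saa2 is uncertain. Their sum does not depend on which of the 2 genes a read was given to, though it would lack any shared reads that were discarded. The log2 ratios of the summed mean CPM were 2.48 for the mice labelled Rag1-/- over wild type, 8.33 for co-housed over separately housed Tcra-/- mice and -6.23 for separately housed Tcra-/- over wild type mice.

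**Figure D2:**
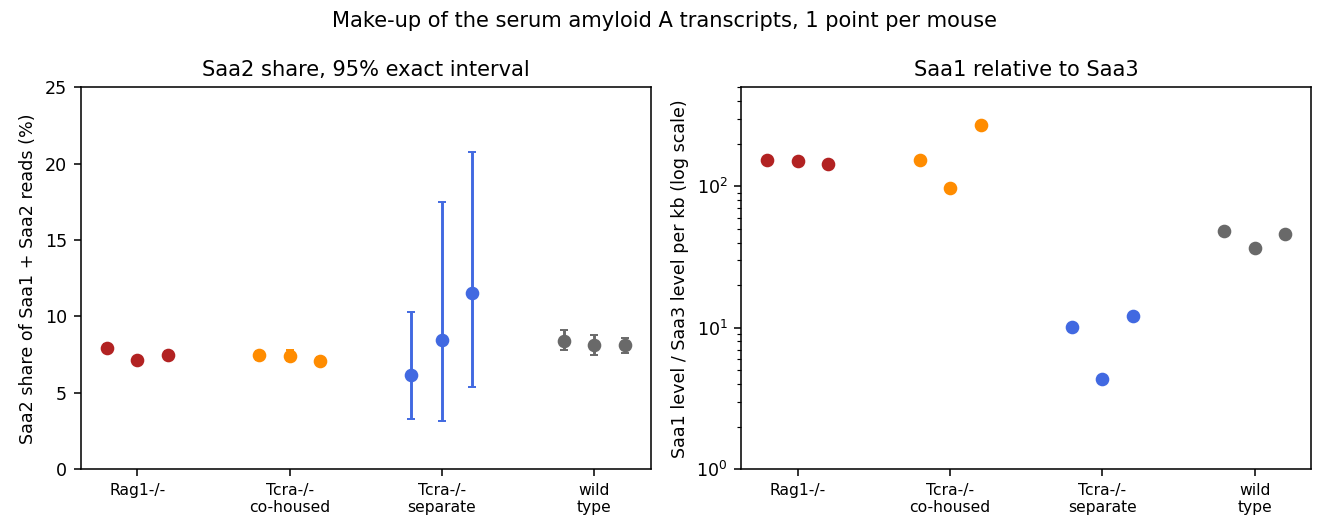
Left, the Saa2 share of Saa1 plus Saa2 reads in percent with 95% exact intervals; right, the Saa1 level divided by the Saa3 level, both per kilobase of gene length, on a log scale; each point is 1 mouse. The share stays between 6.16% and 11.5% in all 12 mice, whereas the ratio lies at 96.8 to 269 in both high groups, 4.37 to 12.1 in separately housed Tcra-/- mice and 36.8 to 48.6 in wild type mice.

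Saa3, the form made largely outside the liver, had its group means in the same order as Saa1, but with wild type close to the high groups. Saa3 had 5.61, 6.35 and 6.19 CPM in the mice labelled Rag1-/-, 4.03, 4.73 and 3.79 CPM in co-housed Tcra-/- mice, 0.373, 0.303 and 0.109 CPM in separately housed Tcra-/- mice and 2.68, 3.38 and 4.94 CPM in wild type mice. Co-housed Tcra-/- and wild type mice overlapped, the mice labelled Rag1-/- lay above both, and the separately housed mice lay below all others. For Saa3 the rise in co-housed over separately housed Tcra-/- mice was 3.99 on the log2 scale (SE 0.31, 15.9-fold, adjusted p = 5.70e-08), and separately housed Tcra-/- over wild type mice gave -3.80 (SE 0.32, 13.9-fold lower, adjusted p = 8.18e-07). The mice labelled Rag1-/- over wild type gave 0.72 (SE 0.23, 1.65-fold, adjusted p = 0.0243), which missed the threshold although the groups did not overlap. Without WTB6x3167, the highest wild type mouse, that value became 1.00 with an adjusted p of 0.00488, and DESeq2 gave 0.73 with an adjusted p of 0.00606. Co-housed Tcra-/- over wild type mice gave 0.19 (SE 0.23, adjusted p = 0.592).

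Saa1 and Saa3 therefore moved by unequal amounts within the same mice. Per kilobase of gene length, the Saa1 level was 154, 152 and 144 times the Saa3 level in the mice labelled Rag1-/- and 153, 96.8 and 269 times in co-housed Tcra-/- mice. It was 10.2, 4.37 and 12.1 times the Saa3 level in separately housed Tcra-/- mice and 48.6, 36.8 and 46.2 times in wild type mice. The ranges of wild type and separately housed mice overlapped with no other group, and those of both high groups overlapped each other. In TCRaCox3157 Saa1 and Saa2 were the highest of the co-housed mice while Saa3 was the lowest, and in WTB6x3167 all 4 members were the highest of wild type.

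Saa4, the constitutive form, was close to absent. It had 12, 15 and 4 reads in the mice labelled Rag1-/-, 9, 7 and 10 reads in co-housed Tcra-/- mice, 2, 3 and 3 reads in separately housed Tcra-/- mice and 3, 3 and 8 reads in wild type mice. The sums were 31 reads (95% exact Poisson interval 21.1 to 44.0) in the mice labelled Rag1-/-, 26 (17.0 to 38.1) in co-housed Tcra-/-, 8 (3.45 to 15.8) in separately housed Tcra-/- and 14 (7.65 to 23.5) in wild type mice. The separately housed mice did not overlap with the mice labelled Rag1-/- or with the co-housed mice in CPM, and all other pairs of groups overlapped. No Saa4 comparison was called. The log2 fold change was 1.83 (SE 0.67, adjusted p = 0.0316) for co-housed over separately housed Tcra-/- mice and 1.18 (SE 0.59, adjusted p = 0.149) for the mice labelled Rag1-/- over wild type. At this depth, changes of Saa4 below severalfold were not detectable.

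Levels of different members are comparable only per length, given here as CPM divided by the gene length in kilobases (RPKM). Mean RPKM of Saa1 was 1709 in the mice labelled Rag1-/-, 1313 in co-housed Tcra-/-, 4.05 in separately housed Tcra-/- and 303 in wild type mice. For Saa2 the means in the same order were 138, 103, 0.340 and 26.9 RPKM. Saa3 averaged 11.4, 7.88, 0.493 and 6.90 RPKM and Saa4 0.120, 0.109, 0.0294 and 0.0515 RPKM in that order. Saa1 was thus the most abundant member in all 4 groups. Saa2 came next in 3 groups, and in separately housed Tcra-/- mice its mean of 0.340 ± 0.120 RPKM was not separable from the 0.493 ± 0.257 RPKM of Saa3 (SD, n = 3 each). Together the 4 members took 0.103% to 0.111% of all reads in the mice labelled Rag1-/-, 0.0574% to 0.120% in co-housed Tcra-/-, 0.000193% to 0.000527% in separately housed Tcra-/- and 0.0166% to 0.0306% in wild type mice.

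Against wild type, 2 of 4 members, Saa1 and Saa2, were called higher in the mice labelled Rag1-/- and none was called lower. The background in that comparison was 9.42% of genes called higher and 20.9% called in either direction, and 45.7% of genes had groups that did not overlap, as had Saa1, Saa2 and Saa3. With library size alone as the scale, the median of all genes moved to -0.19 and the called genes numbered 713 higher and 3218 lower, against 1494 higher and 1820 lower with TMM scaling. The direction of each of the 4 members was the same under either scale.

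In co-housed over separately housed Tcra-/- mice, 3 of 4 members were called higher, against a background of 21.1% of genes called higher and 38.8% called in either direction. All 4 members had groups that did not overlap, as had 57.9% of genes. Library size alone moved the median of all genes to -0.12 and gave 2480 genes higher and 3695 lower, against 3347 and 2809 with TMM, and no member changed direction.

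Comparisons between the other pairs of groups place the 4 groups in order, and they reuse the same mice, so they are not independent of the values above. For co-housed Tcra-/- over wild type mice, 2 of 4 members were called higher, against 9.34% of genes called higher and 18.5% called in either direction, and the groups did not overlap for the same 2 members and for 41.7% of genes. In separately housed Tcra-/- over wild type mice, 3 of 4 members were called lower, against 7.70% of genes called lower and 13.8% called in either direction, and the groups did not overlap for those 3 and for 40.7% of genes. For the mice labelled Rag1-/- over separately housed Tcra-/- mice, 3 of 4 members were called higher, against 18.0% of genes called higher and 36.1% called in either direction. All 4 members had groups that did not overlap there, as had 60.1% of genes. The log2 fold changes were 8.72 (SE 0.59) for Saa1, 8.64 (SE 0.49) for Saa2 and 4.52 (SE 0.31) for Saa3. Saa4 was not called there, at 1.97 (adjusted p = 0.0205). It would have been called without RAG1x3168, at 2.39 (adjusted p = 0.00519).

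The mice labelled Rag1-/- and the co-housed Tcra-/- mice were the neighbours in this order whose differences did not pass the test. The edgeR test called 0 of 4 members, against 2.89% of all genes called in either direction and 0.340% called higher, with 1 member, Saa3, at an unadjusted p under 0.05 and 0 called by DESeq2. The log2 differences were 0.38 (SE 0.41, adjusted p = 0.703) for Saa1, 0.43 (SE 0.28, adjusted p = 0.496) for Saa2, 0.53 (SE 0.23, adjusted p = 0.227) for Saa3 and 0.14 (SE 0.54, adjusted p = 0.933) for Saa4. Saa3 was also the only member whose values in these groups did not overlap, as was the case for 22.7% of genes. For Saa1 and Saa2 the order by the fit to all 12 libraries was therefore the mice labelled Rag1-/- with co-housed Tcra-/- mice at the top, then wild type, then separately housed Tcra-/- mice, where the step from co-housed to wild type mice was not called in the fit to the 6 libraries compared. For Saa3 wild type was not separable from either high group at the threshold.

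**Figure D3:**
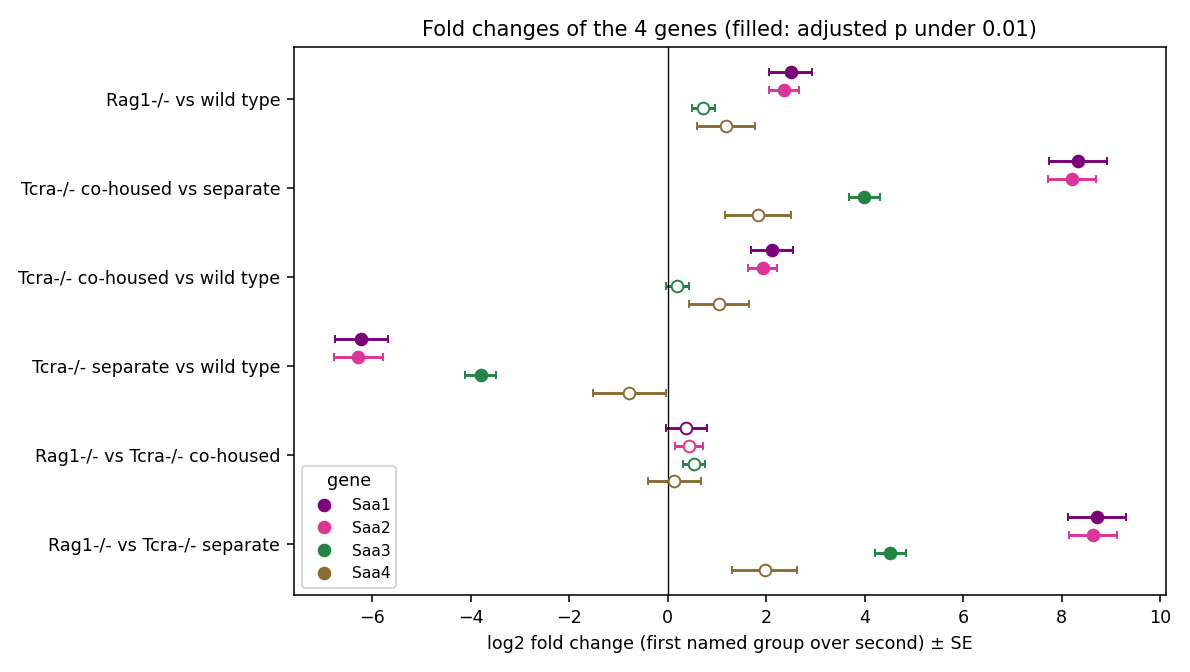
Log2 fold changes with SE for the 4 members in the 6 pairs of groups, first named group over second; filled points had an adjusted p under 0.01 by edgeR. Saa1 and Saa2 lie side by side in every pair, with 8.34 and 8.21 for co-housed over separately housed Tcra-/- mice against 2.50 and 2.36 for Rag1-/- over wild type, while Saa3 sits nearer to 0 than both in every pair except Rag1-/- over co-housed Tcra-/- mice and no Saa4 point is filled.

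The 2 comparisons of the design text use separate mice, so the difference of their effects could be tested. The change was larger for co-housed over separately housed Tcra-/- mice than for the mice labelled Rag1-/- over wild type in 3 of 4 members, against 7.42% of genes with a difference called in that direction. The value for the mice labelled Rag1-/- over wild type minus that for co-housed over separately housed Tcra-/- mice came to -5.84 (SE 0.66, adjusted p = 0.00036) for Saa1, -5.85 (SE 0.61, adjusted p = 0.000141) for Saa2 and -3.27 (SE 0.40, adjusted p = 2.03e-05) for Saa3. For Saa4 it was -0.65 (SE 0.91, adjusted p = 0.676). The values per mouse show where the difference lay: both groups on top of these ratios overlapped for Saa1 and Saa2, and the groups below them, separately housed Tcra-/- and wild type, stood 74.5-fold apart for Saa1. The names of the separately housed mice (TCRaSepxT2, TCRaSepxT3 and TCRaSepxT4) follow another pattern than those of all other mice (such as WTB6x3159). What that naming stands for is not stated, so housing cannot be told apart from another difference of that group.

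In the housing comparison the neighbours of the cluster had smaller log2 fold changes than Saa1, Saa2 and Saa3. Saa4, at 1.83 (SE 0.67), was not called. Within 100 kilobases of the cluster, 6 other genes were tested. In co-housed over separately housed Tcra-/- mice, Sergef gave 0.94 (SE 0.16, adjusted p = 0.000123), Saal1, which lies next to Saa3, gave 0.69 (SE 0.11, adjusted p = 8.00e-05) and Ldha, the lactate dehydrogenase A gene, gave 0.64 (SE 0.07, adjusted p = 2.21e-06). Tph1, which makes serotonin in enteroendocrine cells, fell by 0.99 (SE 0.23, adjusted p = 0.00188), and Hps5 and Gtf2h1, the nearest genes beyond Saa2, were not called, at -0.10 (adjusted p = 0.247) and 0.15 (adjusted p = 0.0948). For the mice labelled Rag1-/- over wild type, Ldha was the only neighbour called, at 0.54 (SE 0.07, adjusted p = 2.64e-05), and Tph1 gave -0.80 (SE 0.23, adjusted p = 0.0124), a larger size than the 0.72 of Saa3, which was not called either. Every neighbour moved by less than 1 on the log2 scale in both comparisons, and the 3 called members by 3.99 to 8.34 in the housing comparison.

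To find genes with a like pattern, each profile of log2 CPM over the 12 mice was centred on its mean and compared by the root mean square (RMS) difference. All 12 mice contribute to both profiles, so likeness mostly reflects the 4 group means. The profile nearest to Saa1 was that of Saa2, at an RMS of 0.30, while the median gene lay at 3.60. Next came Gml, a glycosylphosphatidylinositol-anchored molecule like protein gene, at 1.17, then Myot at 1.33, Hemt1 at 1.35 and Trim10 at 1.45. Gml (74643885 to 74649245, minus strand) and Hemt1 (74649506 to 74654866, plus strand) lie close together on chromosome 15. The separately housed mice held 6, 2 and 0 reads of Gml. Gml averaged 28.2 CPM in the mice labelled Rag1-/-, 18.3 in co-housed Tcra-/-, 0.0594 in separately housed Tcra-/- and 0.891 in wild type mice, so it shared the high groups of Saa1 but was lower in wild type relative to them. For Saa2 the nearest genes after Saa1 were Gml at 1.17, Myot at 1.19, Hemt1 at 1.23 and U90926 at 1.32.

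The genes nearest to Saa3 were of another kind. They were Gm14446 at an RMS of 0.51, H2-DMb1 at 0.56, Mir5107 at 0.60, Cd74 at 0.61 and Nos2 at 0.61, with the median gene at 1.82. H2-DMb1 and Cd74 encode parts of the machinery that loads antigen onto MHC class II, Mir5107 lies within Cd74 and can share its reads, and Nos2 encodes inducible nitric oxide synthase. Cd74 averaged 1749 CPM in the mice labelled Rag1-/-, 2118 in co-housed Tcra-/-, 188 in separately housed Tcra-/- and 2218 in wild type mice. Nos2 averaged 845 CPM in the mice labelled Rag1-/-, 692 in co-housed Tcra-/-, 56.8 in separately housed Tcra-/- and 398 in wild type mice. Gm14446 averaged 422 CPM in the mice labelled Rag1-/-, 339 in co-housed Tcra-/-, 19.1 in separately housed Tcra-/- and 153 in wild type mice. In Gm14446, Cd74 and Nos2, as in Saa3, the separately housed group had the lowest mean, whereas the mean of the mice labelled Rag1-/- was above wild type in Gm14446 and Nos2 and below it in Cd74. The members themselves lay at an RMS of 1.89 between Saa1 and Saa3 and 1.70 between Saa2 and Saa3. The profile of Saa4 was nearest to Zfp612 at 0.32, Pgs1 at 0.37, Mx1 at 0.37, Sh3bp2 at 0.38 and Mpp3 at 0.38, but the prior count of 2 flattens a gene of so few reads and the median gene was at 0.78.

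**Figure D4:**
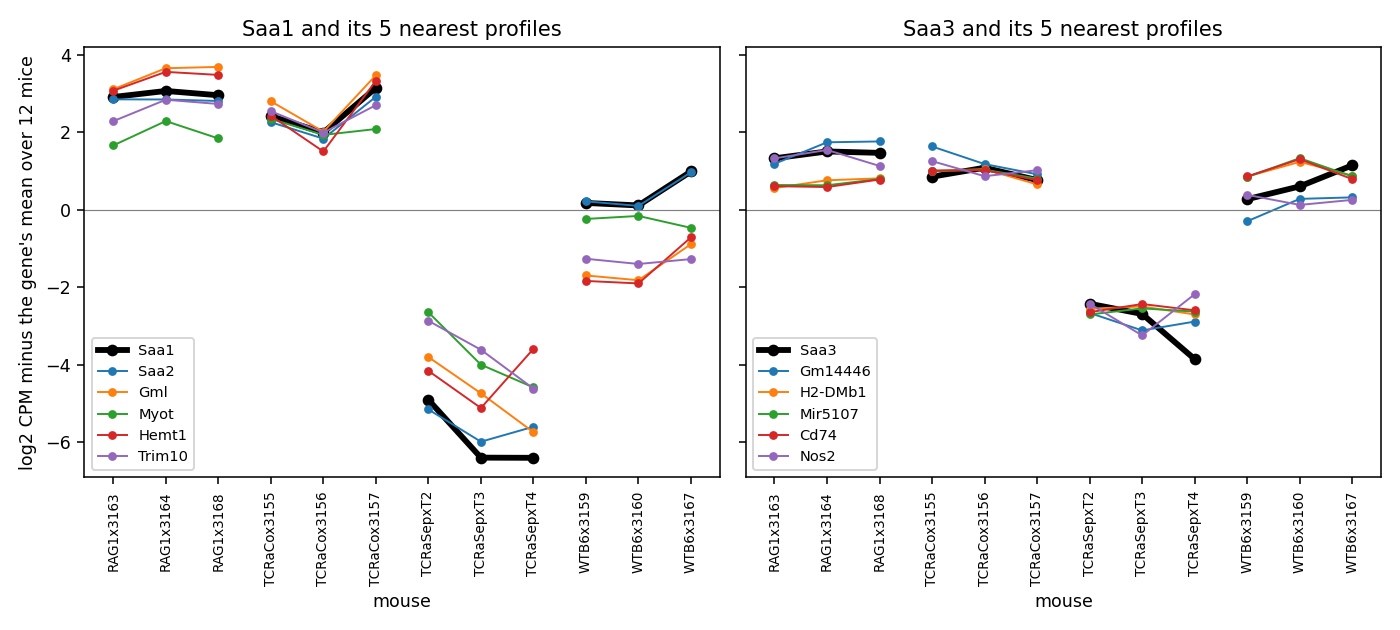
Log2 CPM minus the mean over 12 mice for Saa1 (left) and Saa3 (right), in black, with the 5 nearest profiles in colour; the x axis lists the mice and breaks mark the groups. Saa1 and Saa2 coincide at an RMS of 0.30 and stand above the other 4 nearest genes in wild type, whereas Saa3 runs with Gm14446, H2-DMb1, Mir5107, Cd74 and Nos2 within an RMS of 0.51 to 0.61.

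The cytokines that induce serum amyloid A were described next. The counts of this and the following lists stand beside 9.42% of all genes called higher and 20.9% called in either direction in the mice labelled Rag1-/- over wild type, and 21.1% and 38.8% in co-housed over separately housed Tcra-/- mice. Of 9 tested cytokines, 2 were called higher and 0 lower in the mice labelled Rag1-/- over wild type (median log2 fold change -0.02, with all genes at -0.02), and 5 higher and 0 lower in co-housed over separately housed Tcra-/- mice (median 2.50, with all genes at -0.01). Il22, whose product acts on epithelium through STAT3, had 1.49, 2.32 and 1.17 CPM in the mice labelled Rag1-/-, 2.08, 2.51 and 1.49 CPM in co-housed Tcra-/- mice, 0 reads in all 3 separately housed Tcra-/- mice and 0.135, 0.0906 and 0.0671 CPM in wild type mice. Both high groups overlapped and all of their mice were above wild type, as for Saa1. The log2 fold change of Il22 was 4.05 (SE 0.43, adjusted p = 6.78e-06) for the mice labelled Rag1-/- over wild type. Against the floor of 3 reads over the separately housed group, Il22 was at least 91.2-fold higher in co-housed Tcra-/- mice and the separately housed group was at least 4.36-fold lower than wild type. Among the other inducers, Tnf gave 1.49 (SE 0.23) for the mice labelled Rag1-/- over wild type and 2.79 (SE 0.26) for co-housed over separately housed Tcra-/- mice, both called. Il1b gave -0.07 (adjusted p = 0.896) and 1.76 (SE 0.33, adjusted p = 0.000364) in the same order, and the sign of the first value changed when RAG1x3164 or WTB6x3167 was left out (0.08 and 0.22). Ifng gave -1.73 (adjusted p = 0.0467) and 4.71 (SE 0.79, adjusted p = 0.000124). Il6, the classic liver inducer, did not pass the filter, with 17, 17, 3 and 4 reads in the mice labelled Rag1-/-, co-housed Tcra-/-, separately housed Tcra-/- and wild type mice.

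Downstream of these cytokines, of 15 receptors and kinases 4 were called higher and 3 lower in the mice labelled Rag1-/- over wild type, and 5 higher and 2 lower in co-housed over separately housed Tcra-/- mice, with medians of -0.08 in both. The share called in the housing comparison was close to the 38.8% of all genes. Socs3, a feedback inhibitor that STAT3 induces, rose by 2.96 (SE 0.31, adjusted p = 8.68e-05) and 3.36 (SE 0.31, adjusted p = 2.12e-05) in these comparisons. Il22ra1, the epithelial receptor chain for interleukin 22, fell by 0.78 (SE 0.11, adjusted p = 4.08e-05) and fell by 1.03 (SE 0.11, adjusted p = 1.24e-06). Among 15 transcription factors that act at serum amyloid A promoters, 1 was called higher and 1 lower in the mice labelled Rag1-/- over wild type, and 6 higher and 3 lower in the housing comparison, with medians of 0.06 and 0.19. Stat3 itself gave 0.30 (SE 0.09, adjusted p = 0.0164) and 0.55 (SE 0.09, adjusted p = 9.03e-05). Cebpb gave 0.40 (adjusted p = 0.0971) and 1.00 (SE 0.18, adjusted p = 0.000223). Cebpd, an acute phase member of the C/EBP family, gave 1.26 (SE 0.28, adjusted p = 0.00687) and 2.40 (SE 0.30, adjusted p = 9.11e-05). The first Cebpd call stood only when RAG1x3164 or RAG1x3168 was the library left out, the other 10 omissions giving adjusted p from 0.0104 to 0.0294. That call also ended with library size alone as the scale (adjusted p = 0.0143), with no filter on low counts (0.0124) and in a fit to the 6 libraries compared (0.0614). The retinoid receptors Rara and Rxra fell by 0.78 (SE 0.11) and 0.54 (SE 0.07) in the housing comparison, and Rarb gave -0.06 (adjusted p = 0.887) and -0.21 (adjusted p = 0.516).

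**Figure D5:**
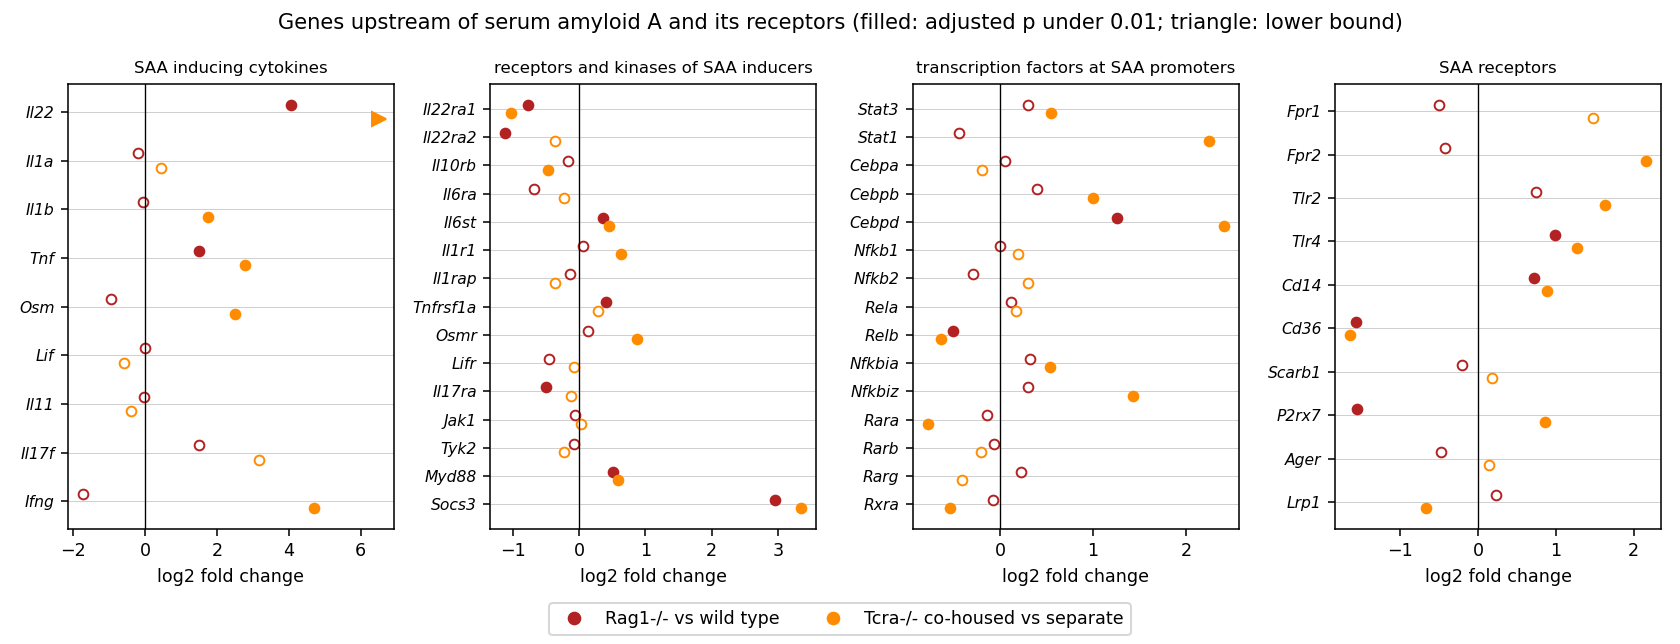
Log2 fold changes of genes upstream of serum amyloid A and of its receptors, in Rag1-/- over wild type (red) and co-housed over separately housed Tcra-/- mice (orange); filled points had an adjusted p under 0.01 and the triangle marks the lower bound for Il22. Il22 at 4.05 and Socs3 at 2.96 are the farthest red points to the right, and most other signalling genes lie within 1 of 0 in that comparison.

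Receptors and carriers of the proteins did not move as a block. Of 10 reported receptors, 2 were called higher and 2 lower in the mice labelled Rag1-/- over wild type, and 5 higher and 2 lower in co-housed over separately housed Tcra-/- mice, with medians of -0.31 and 0.87. Fpr2, the formyl peptide receptor of neutrophils and macrophages, gave -0.43 (adjusted p = 0.616) and 2.16 (SE 0.61, adjusted p = 0.00754). The second Fpr2 call ended without TCRaCox3155 (0.0252), TCRaCox3156 (0.0303), TCRaSepxT2 (0.0253), TCRaSepxT4 (0.0386), WTB6x3159 (0.0107), WTB6x3160 (0.0109) or WTB6x3167 (0.0103), the adjusted p being given in each case. Tlr2 gave 0.75 (adjusted p = 0.016) and 1.64 (SE 0.24, adjusted p = 4.18e-05). The scavenger receptor Cd36, also a fatty acid transporter of enterocytes, fell by 1.57 (SE 0.11, adjusted p = 4.46e-08) and fell by 1.65 (SE 0.11, adjusted p = 1.20e-08). Scarb1, the high-density lipoprotein receptor, gave -0.20 (adjusted p = 0.471) and 0.18 (adjusted p = 0.451). The 2 called higher in the first comparison were Cd14, at 0.72 (adjusted p = 0.00135), and Tlr4, at 1.00 (adjusted p = 0.00318). Cd14 and Tlr4 gave 0.89 and 1.28 in the second, both called. The first Tlr4 call ended under 4 other settings (adjusted p up to 0.0189). P2rx7 gave -1.56 (adjusted p = 0.000257) and 0.86 (adjusted p = 0.00994), and its second call ended under 13 other settings. Among 11 lipoprotein and retinol partners, 0 were called higher and 2 lower in the first comparison, and 2 higher and 4 lower in the second, with medians of -0.46 and 0.04. Lrat, which esterifies retinol, fell by 1.34 (SE 0.13) and 2.31 (SE 0.13), and Apoa1, the main apolipoprotein of high-density lipoprotein, gave -0.60 (adjusted p = 0.0148) and -1.26 (SE 0.17, adjusted p = 3.81e-05). Stra6, a retinol transporter gene, was called in opposite directions, at -3.66 (adjusted p = 2.16e-06) and 2.23 (adjusted p = 4.57e-05).

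Mediators that serum amyloid A is known to induce in myeloid cells were mostly low in reads. Of 6 tested, 2 were called higher and 0 lower in the mice labelled Rag1-/- over wild type, and 4 higher and 0 lower in co-housed over separately housed Tcra-/- mice, with medians of 1.05 and 2.91. The neutrophil chemokine Cxcl5 rose by 2.10 (SE 0.40, adjusted p = 0.000704) and 4.99 (SE 0.61, adjusted p = 5.79e-06). The other called chemokine of the first comparison, Cxcl1, gave 2.64 (adjusted p = 0.00789), and its call stood only when the library left out was RAG1x3163, TCRaCox3156, TCRaCox3157 or WTB6x3167 (adjusted p up to 0.0413 otherwise).

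Of 11 tested genes for other acute phase proteins, 2 were called higher and 0 lower in the mice labelled Rag1-/- over wild type, and 4 higher and 1 lower in co-housed over separately housed Tcra-/- mice, with medians of 0.51 and 1.14. The 2 called in the first comparison were Lcn2, the siderophore-binding lipocalin, and Lrg1, a leucine-rich glycoprotein. Lrg1 had 175, 172 and 113 CPM in the mice labelled Rag1-/-, 68.1, 60.5 and 198 CPM in co-housed Tcra-/- mice, 1.32, 0.513 and 0.394 CPM in separately housed Tcra-/- mice and 0.585, 0.974 and 1.39 CPM in wild type mice. Unlike the 3 called members, separately housed Tcra-/- and wild type mice overlapped for Lrg1. Its log2 fold changes were 7.28 (SE 0.69, adjusted p = 6.80e-05) for the mice labelled Rag1-/- over wild type, 7.19 (SE 0.70, adjusted p = 4.04e-05) for co-housed over separately housed Tcra-/- mice and -0.40 (SE 0.94, adjusted p = 0.80) for separately housed Tcra-/- over wild type mice. Lcn2 gave 2.24, 2.31 and 0.08 (adjusted p = 0.884) in the same order. Whether Lrg1 or Lcn2 differed from Saa1 in these effects was not tested.

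Epithelial defence genes moved in the direction of Saa1 in most cases. Of 10 tested, 8 were called higher and 0 lower in the mice labelled Rag1-/- over wild type, and 9 higher and 1 lower in co-housed over separately housed Tcra-/- mice, with medians of 2.18 and 3.72. Reg3g, a lectin that kills gram-positive bacteria, gave 2.67 (SE 0.35, adjusted p = 0.000384) and 4.40 (SE 0.38, adjusted p = 1.13e-05), and -1.89 (SE 0.34, adjusted p = 0.00398) in separately housed Tcra-/- over wild type mice. Retnlb, a goblet cell protein, gave 5.96 (SE 0.31) and 10.28 (SE 0.50), and Fut2, the fucosyltransferase of the epithelial surface, gave 6.18 (SE 0.42) and 7.01 (SE 0.45). The separately housed mice held 0, 4 and 0 reads of Retnlb, so the size of its second value is poorly fixed. With 1 library left out that value ran from 9.73 to 13.8. The list holds genes known to respond to interleukin 22 or to microbes in epithelium, and it was made with earlier results of these data known, so its direction is not independent evidence.

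Markers of other cell types that can make serum amyloid A were set beside the members. Hepatocyte markers summed to 164 to 381 CPM in the mice labelled Rag1-/-, 168 to 207 in co-housed Tcra-/-, 25.9 to 34.5 in separately housed Tcra-/- and 31.7 to 38.9 in wild type mice. That sum moved with Tat, a tyrosine aminotransferase that averaged 238, 157, 3.25 and 13.9 CPM in the same order of groups, while Alb, which defines hepatocytes, had 4, 0, 8 and 0 reads. Of 7 tested hepatocyte markers, 1 was called higher and 1 lower in the first comparison and 1 higher and 2 lower in the second. Adipocyte markers summed to 80.5 to 125 CPM in the mice labelled Rag1-/-, 89.6 to 112 in co-housed Tcra-/-, 308 to 547 in separately housed Tcra-/- and 185 to 305 in wild type mice. Of 9 tested adipocyte markers, 2 were called lower in the first comparison and 3 in the second, and none was called higher in either. That sum moved mainly with Pck1, a gluconeogenic enzyme gene that enterocytes also express. Pck1 averaged 7.99, 5.69, 203 and 107 CPM in the same order of groups. Adipoq and Plin1, which define adipocytes, averaged at most 2.23 and 0.646 CPM in any group and were not called in either comparison. All adipocyte markers except Lep and Fabp4 had their highest mean in separately housed Tcra-/- mice. Cfd was called higher in separately housed Tcra-/- over wild type mice, at 2.02 (adjusted p = 0.00735). Adipoq was called lower in the mice labelled Rag1-/- over separately housed Tcra-/- mice, at -1.84 (adjusted p = 0.00419). The part of adipocyte numbers in the changes of the members was not tested.

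Macrophage markers summed to 257 to 289 CPM in the mice labelled Rag1-/-, 344 to 547 in co-housed Tcra-/-, 181 to 238 in separately housed Tcra-/- and 336 to 401 in wild type mice. In co-housed over separately housed Tcra-/- mice, 8 of 11 were called higher with a median of 0.97, and no macrophage marker was at 0 in any group. For the mice labelled Rag1-/- over wild type, edgeR called 0 of 11, with 8 at an unadjusted p under 0.05, 2 called by DESeq2 and a median of -0.36. Neutrophil markers summed to 11.02 to 14.1 CPM in the mice labelled Rag1-/-, 10.4 to 11.7 in co-housed Tcra-/-, 2.003 to 2.73 in separately housed Tcra-/- and 3.33 to 5.52 in wild type mice, the same order as Saa1. Of 5 tested neutrophil markers, 1 was called higher in the first comparison and 4 in the second, and Elane was at 0 in all 4 groups. The neutrophil sum moved mainly with Ltf, whose log2 fold changes were 2.30 and 5.06 in these comparisons, both called. S100a8, S100a9 and Retnlg had group means in the same order, but under 1 CPM in every group. Cxcr2 was not called in either comparison and had its highest mean in co-housed Tcra-/- mice. Camp had 13 reads in separately housed Tcra-/- mice and fewer in every other group. T cell markers summed to 6.20 to 8.45 CPM in the mice labelled Rag1-/-, 22.7 to 49.9 in co-housed Tcra-/-, 9.80 to 10.2 in separately housed Tcra-/- and 64.9 to 103 in wild type mice. The part of macrophage and neutrophil numbers in the changes of Saa1, Saa2 and Saa3 was not tested.

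Enterocyte markers summed to 18867 to 21271 CPM in the mice labelled Rag1-/-, 19581 to 22718 in co-housed Tcra-/-, 26201 to 29758 in separately housed Tcra-/- and 22514 to 26400 in wild type mice. Of 10 tested, 4 were called lower in the mice labelled Rag1-/- over wild type and 5 in co-housed over separately housed Tcra-/- mice, and none was called higher in either, with medians of -0.28 and -0.17. The sum moved mainly with Fabp2, the intestinal fatty acid binding protein gene, which averaged 2640 CPM in the mice labelled Rag1-/-, 2741 in co-housed Tcra-/-, 7983 in separately housed Tcra-/- and 5210 in wild type mice. In co-housed over separately housed Tcra-/- mice Krt20, Fabp6 and Slc10a2 had positive values of 0.24, 0.15 and 0.30 that were not called. Fibroblast markers summed to 427 to 477 CPM in the mice labelled Rag1-/-, 479 to 611 in co-housed Tcra-/-, 557 to 748 in separately housed Tcra-/- and 421 to 616 in wild type mice, with 2 of 8 called lower in the first comparison and 1 higher and 1 lower in the second. The calls were Fbln1, at -0.79 and -1.59, and Thy1, at -0.88 and 0.97, the directions of the called T cell markers. Col1a1, Col1a2, Col3a1, Pdgfra, Dcn and Lum were not called in either comparison.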

How the data were processed

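The terminal ileum of 12 mice was sequenced from stranded mRNA libraries, per the labels' protocols. Per the submitters' processing notes, the tools were bcl2fastq, TopHat2 2.0.11, Bowtie2 2.2.2.0, featureCounts, Subread 1.4.5-p1 and DESeq2 1.12.3, with the build mm9. The deposited values are whole-number read counts per gene with no normalization, and the gene lengths are deposited beside them, per the file headers. No source used here gives the gene annotation, the strand setting of the counting or the treatment of reads with several matches.

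Groups came from the labels, which give no batch or pairing. Of 23284 genes, 3810 had no read. Totals were 37061276 to 50581616 counts, and precision at low counts is limited by counting error. filterByExpr of edgeR 4.0.16 kept 15866 genes, TMM factors were 0.926 to 1.07, and all 12 libraries entered a robust quasi-likelihood model (1 term per group, 8 residual degrees of freedom, R 4.3.3). Contrasts were two-sided, adjusted by Benjamini-Hochberg over all tested genes, and called at an adjusted p under 0.01, which is the rate the study's design states. Adjusted p-values in the text come from this test unless DESeq2 1.42.0 is named. SEs of log2 fold changes were taken from the F statistic, as the absolute change over the root of F. CPM uses the TMM library size, RPKM adds the deposited length, and SDs are over 3 mice. Folds against a group at 0 reads use a floor of 3 reads over the group. The fit was tested on simulated data only for the mice labelled Rag1-/- over wild type, with changes smaller than that of Saa1. That test does not check changes as large as those of Saa1 in co-housed over separately housed Tcra-/- mice.

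The members and the gene lists were chosen with earlier results of these data known. Named genes were the 4 members, up to 4 called genes of smallest adjusted p per list and comparison, of which those with the clearest role were printed, a fixed set (Il22, Il1b, Il6, Tnf, Stat3, Socs3, Cebpb, Cebpd, Fpr2, Tlr2, Scarb1, Rarb, Reg3g and Lcn2), and the 5 nearest profiles of each member; the 6 tested genes within 100 kilobases of the cluster were named as its neighbours. Promoters and RefSeq names were read from RefSeq (GRCm38.p6), and transcripts were read from GENCODE and not from the deposited gene models. Promoters and transcripts were aligned with Biopython 1.88 (match 1, mismatch -1, gap opening -2 and extension -0.5). RefSeq lists Saa1 and Saa2 as former names of each other, and the names here are those of the deposited table, whose strands are the same as in RefSeq. Alternatives were other scaling factors, other filters, DESeq2, a fit to the 6 libraries compared and leaving out each library. Ly6g was not used here because the deposited table has no such symbol. Adgre1 was present under its older symbol, Emr1, and was counted once among the macrophage markers.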

Additional observations from a re-analysis of the deposited data

Results flagged for a closer look

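The effects of the 2 stated comparisons differed for 3 of the 4 members by a test of the difference itself. The log2 fold change for the mice labelled Rag1-/- over wild type minus that for co-housed over separately housed Tcra-/- mice was -5.84 for Saa1, -5.85 for Saa2 and -3.27 for Saa3. The adjusted p of these differences by the edgeR quasi-likelihood test were 0.00036, 0.000141 and 2.03e-05 in that order. All 3 members had a positive value in both comparisons, in 3 of 3 mice of each upper group against every mouse of the group below it. The value for co-housed over separately housed Tcra-/- mice was the larger. Groups of 3 mice are too small for a test of single outlying mice.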

How the results depend on the processing

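Of 488 values of the members under the alternatives, 471 kept direction and side of the threshold, 11 lost a call, 3 gained one and 3 changed sign. In a fit to the 6 libraries compared, the rises of Saa1 and Saa2 in co-housed Tcra-/- over wild type mice were 2.12 (adjusted p = 0.0224) and 1.93 (adjusted p = 0.0205) and were not called. With DESeq2, Saa3 was called in the mice labelled Rag1-/- over wild type, at 0.73 (adjusted p = 0.00606). The number of genes called between the mice labelled Rag1-/- and co-housed Tcra-/- mice was 459, against 838 with DESeq2 and 281 with the 6 libraries compared.

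Leaving out 1 library gave log2 fold changes of 2.34 to 2.84 for Saa1, 0.54 to 1.00 for Saa3 in the mice labelled Rag1-/- over wild type, and 1.74 to 2.46 for Saa1 in co-housed Tcra-/- over wild type mice. For Saa4 it gave 1.59 to 2.39 in the mice labelled Rag1-/- over separately housed Tcra-/- mice and -0.24 to 0.56 over co-housed Tcra-/- mice, where the sign changed without RAG1x3163 (-0.02), RAG1x3164 (-0.24) or TCRaCox3156 (-0.05). It gave 297 to 569 genes called between the mice labelled Rag1-/- and co-housed Tcra-/- mice and 1281 to 2457 between separately housed Tcra-/- and wild type mice, with 1281 without TCRaSepxT4 and 2182 with all libraries. The causes were not tested.

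For 56 other named genes, 1912 of 2007 values stayed the same, 67 lost a call, 22 gained one and 6 changed sign. The sign changes, all in the mice labelled Rag1-/- over wild type and none of them called, were Cfb with library size alone (-0.060), and, with 1 library left out, Il1b (-0.26 to 0.22), Rarb (-0.16 to 0.15) and Serpina3n (-0.39 to 0.25). No paired analysis was possible because the labels give no replicate numbers that groups share. Depth limits Saa4 in all groups, and Saa2 and Saa3 in separately housed Tcra-/- mice, where they rest on 28 and 35 reads.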
